A study of Mus musculus with 8 samples.

Results

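The transcription factors that set and keep the macrophage lineage were followed in tumor-associated macrophages (TAMs) of mice without the microRNA miR-21. The members were the 9 rows of the expression table whose gene symbol is Spi1, Cebpa, Cebpb, Maf, Klf2, Klf4, Nr4a1, Runx1 or Tfec, out of 53247 rows. All 9 were above the expression limit of a mean of 1 CPM (reads of a gene scaled to a library total of 1e+06) and belonged to the 13363 genes tested. TAMs came from tumors grown after s.c. implantation of LLC cells, a lung carcinoma line of C57BL/6 origin, into C57/BL6 hosts that were WT (n = 4 samples) or miR-21 null (miR-21-/-, n = 4 samples). Hosts were 10 weeks old at collection, 14 days after implantation. Cells were sorted by FACS as CD45+, CD11b+, MHCII+ and F4/80+. The deletion is a germline one, so every host cell type lacked miR-21 while the implanted LLC cells were the same line in both genotypes. The label of miR-21-/- sample 1 joins 2 numbers, and whether it pools 2 mice is not given in the sources used here.

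PU.1, the product of Spi1, is an ETS factor that opens myeloid enhancers and is required for macrophages to form, and Runx1 acts before and beside it. C/EBPα (Cebpa) drives the granulocyte and monocyte branch, while C/EBPβ (Cebpb) acts later, in inflammatory and alternative activation. c-Maf (Maf) limits self-renewal and supports anti-inflammatory and resident-like programs, Klf2 and Klf4 restrain inflammatory activation and favour the monocyte fate, Nr4a1 is an inducible orphan nuclear receptor needed by patrolling monocytes, and Tfec is a macrophage-restricted member of the MiT family, which also holds the lysosomal regulators Mitf, Tfe3 and Tfeb.

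Depth ranged from 20.2 to 33.4 in units of 1e+06 reads per sample, and by the estimated worth of 1 read about 432 (Klf4 in miR-21-/- 4) to 28503 reads (Maf in WT 1) stood behind a member's value. The Mir21a row was at the lowest listed value of 0.0001 CPM in all 8 samples, WT included, so it does not check the genotype labels. Vmp1, whose transcription unit overlaps Mir21a, separated the genotypes, at 115 to 133 CPM among the WT samples against 373 to 426 CPM in the miR-21-/- ones. Macrophage markers were present in every sample: all 10 (Ptprc, Itgam, Adgre1, H2-Ab1, H2-Aa, Csf1r, Cd68, Fcgr1, Mertk and Lyz2) exceeded 3 reads in all 8, and their sum was 14081 to 15691 CPM in WT samples and 14469 to 17196 CPM in miR-21-/- TAMs. Single markers moved in both directions: Adgre1, which encodes F4/80, had 564 ± 19.4 and 433 ± 27.5 CPM with no overlap (log2 fold change -0.38, adjusted p = 0.00137, limma), and Fcgr1 was higher (0.75, adjusted p = 0.000567).

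Because the deleted gene is a microRNA, the 3′ untranslated regions (3′ UTRs) of the members were read for matches to its seed, the bases 2 to 8 that pair with a target. A match of 8 bases is the seed match followed by an A opposite base 1 of the miRNA, and one of 7 bases is either the whole seed match (Nr4a1) or a match to bases 2 to 7 followed by that A (Runx1). The mature RNA is shown with the seed in capitals (RefSeq, GRCm38.p6, chr11:86584120-86584141, minus strand), and the 3 members with a match of 7 or more bases are shown with the match in capitals and its GRCm38 position.
mmu-miR-21a-5p: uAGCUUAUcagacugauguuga
Maf, 8 bases, chr8:115702469-115702476, minus strand: tctccaagcatATAAGCTAgggataactac
Nr4a1, 7 bases, chr15:101274538-101274544, plus strand: ctctgttgtaaATAAGCTgacgctactgt
Runx1, 7 bases, chr16:92601559-92601565, minus strand: cagggcagcccTAAGCTActgatgttttc
Maf and Runx1 each held 1 further match of 6 bases, and the 3′ UTRs of Spi1, Cebpa, Cebpb, Klf2, Klf4 and Tfec held none. Among tested genes, 11261 had a 3′ UTR in the annotation, and 12.4% of these held a match of at least 7 bases and 2.23% one of 8 bases. The UTRs of Maf (4319 bases) and Runx1 (4192 bases) were the longest among the 9 members, and that of Nr4a1 had 546 bases. A match is a description of the sequence only.

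The 3 members with the largest fold changes (Nr4a1, Klf4 and Cebpa) are shown with the 250 bases before their RefSeq start (GRCm38.p6). Capitals mark, on either strand, TGACG (the core of the cAMP response element), CCACCC (a KLF box) and CACGTG (an E-box of the kind MiT factors bind).
Nr4a1 promoter, chr15:101266596-101266845, plus strand: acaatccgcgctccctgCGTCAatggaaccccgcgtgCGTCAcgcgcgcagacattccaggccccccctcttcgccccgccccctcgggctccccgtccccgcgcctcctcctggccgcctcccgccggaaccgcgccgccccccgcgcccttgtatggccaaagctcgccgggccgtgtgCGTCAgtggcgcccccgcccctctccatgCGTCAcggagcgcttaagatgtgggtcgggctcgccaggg
Klf4 promoter, chr4:55532476-55532725, minus strand: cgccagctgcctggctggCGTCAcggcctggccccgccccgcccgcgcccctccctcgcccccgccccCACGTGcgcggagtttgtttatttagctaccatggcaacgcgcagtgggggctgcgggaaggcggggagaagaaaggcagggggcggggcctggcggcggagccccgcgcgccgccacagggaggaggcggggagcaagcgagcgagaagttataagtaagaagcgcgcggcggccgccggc
Cebpa promoter, chr7:35119043-35119292, plus strand: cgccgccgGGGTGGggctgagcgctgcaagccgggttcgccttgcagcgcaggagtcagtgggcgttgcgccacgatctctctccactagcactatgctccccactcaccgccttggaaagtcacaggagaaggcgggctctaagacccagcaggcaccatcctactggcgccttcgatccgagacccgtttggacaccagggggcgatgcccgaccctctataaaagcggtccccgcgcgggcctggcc
The Nr4a1 promoter held 4 copies of TGACG, that of Klf4 held 1 copy and 1 CACGTG, and that of Cebpa held CCACCC. Windows of 300 bases, from 250 before to 50 after the start, were available for 7 members (8 windows, Runx1 having 2 starts); Spi1 and Maf had no entry. TGACG was present in 4 of these 8 windows (Cebpb, Klf2, Klf4 and Nr4a1) and in 20.8% of all 32851 RefSeq windows, CCACCC in 3 (Cebpa, Cebpb and Klf2) and in 31.5%, and CACGTG in 2 (Klf4 and Runx1) and in 7.15%. The 4 windows with TGACG had 69.3% (Klf2) to 80.7% (Cebpb) GC and that of Cebpa had 67.3%, beside a median of 52.7% over all windows. The shares of all windows were not matched for GC, so they are no like-for-like background. The RUNX letters TGTGGT were found in the Runx1 and Tfec windows and in 16.8% of all windows. No member window held TTGCNNAA (C/EBP, 10.8% of all), GAGGAAGT (PU.1, 3.20%), TGACGTCA (the full cAMP response element, which contains TGACG, 1.79%) or TGANTCA (AP-1, 7.81%), which says only that these letters are not in the windows.

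Levels were compared between members as CPM per kb of exon. Cebpb was the highest in WT TAMs at 139 ± 15.1 CPM per kb (SD, n = 4), followed by Maf at 104 ± 8.57, Spi1 at 93.5 ± 3.02 and Klf2 at 52.4 ± 6.64 CPM per kb. Nr4a1 (31.98 ± 5.75), Cebpa (27.0 ± 4.05), Klf4 (14.6 ± 5.24), Runx1 (7.505 ± 0.390) and Tfec (5.53 ± 1.31 CPM per kb) followed. In WT, Maf overlapped Spi1 and Nr4a1 overlapped Cebpa, and the other neighbours in this order did not overlap. The order in miR-21-/- TAMs differed at 2 places: Spi1 (91.2 ± 3.29) stood before Maf (87.5 ± 5.86), with overlapping samples, and Tfec (6.59 ± 0.795) stood before Klf4 (6.37 ± 1.70) and Runx1 (6.20 ± 0.362 CPM per kb), again with overlap between neighbours.

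**Figure D1:**
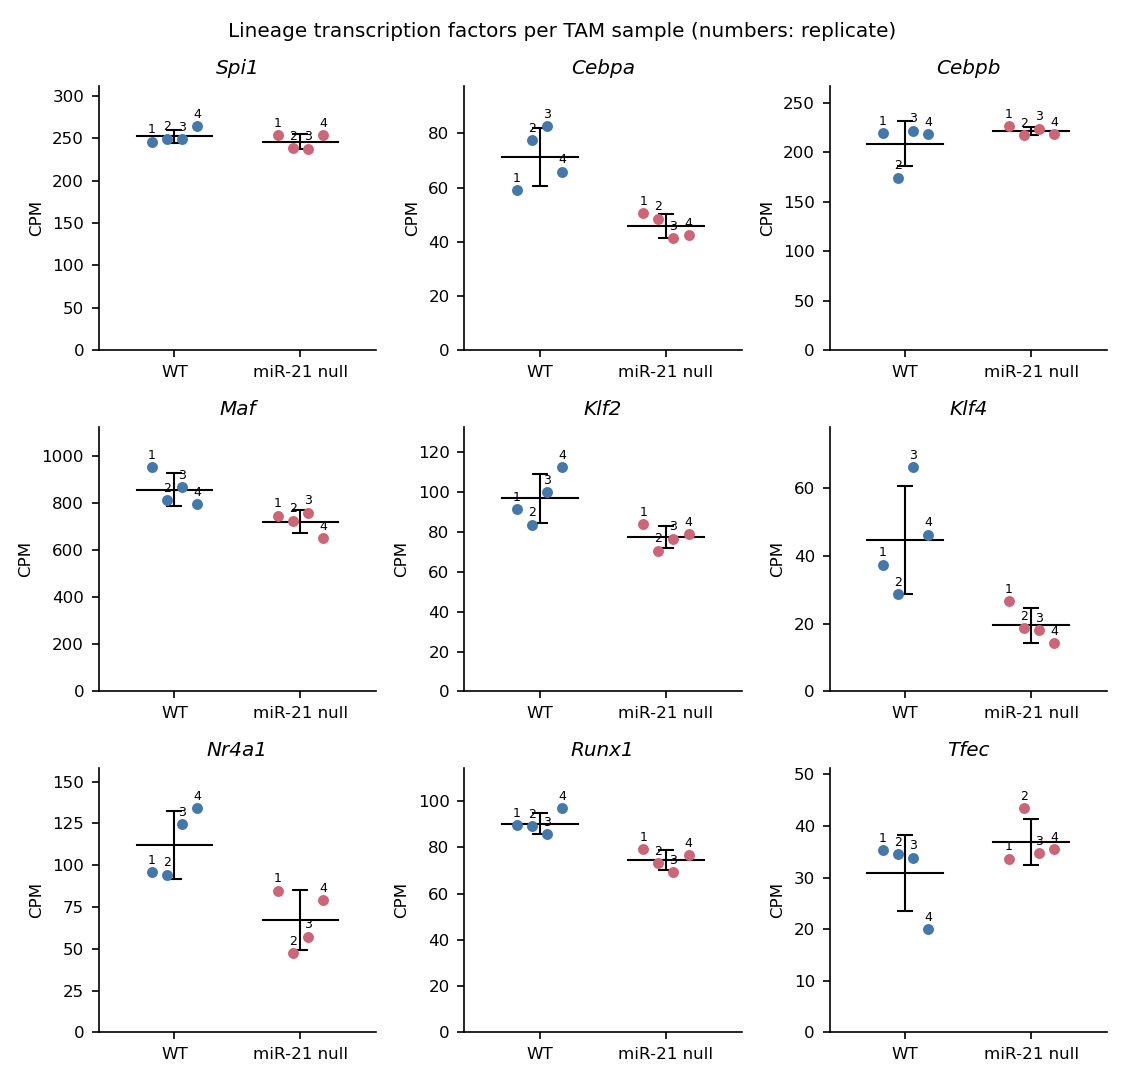
CPM of each of the 9 transcription factors in every TAM sample (vertical axes, linear and starting at 0) by genotype; points are samples with their replicate number, horizontal lines are means and bars are 1 SD, n = 4 per genotype. Cebpa, Maf, Klf4, Nr4a1 and Runx1 have every miR-21-/- sample under every WT sample, while Spi1, Cebpb, Klf2 and Tfec overlap.

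Spi1 was the steadiest member among WT samples and did not pass the test between genotypes. Spi1 (chr2:91082390-91115756, plus strand, GRCm38) had 246, 249, 249 and 264 CPM in WT samples 1 to 4 and 254, 238, 238 and 253 CPM in miR-21-/- samples 1 to 4. The groups overlapped, at 252 ± 8.13 and 246 ± 8.87 CPM (SD, n = 4 each), with a coefficient of variation of 3.23% and 3.61%. The log2 fold change of miR-21-/- over WT on the log2(CPM + 1) scale was -0.036 ± 0.050 (SE), with a 95% confidence interval of -0.15 to 0.075 and an adjusted p of 0.602 (limma, Benjamini-Hochberg over all tested genes).

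Runx1, which with PU.1 sets up the myeloid program, was lower in each miR-21-/- sample than in any WT sample. Its values (chr16:92601466-92826149, minus strand) were 89.5, 89.0, 85.7 and 96.8 CPM in WT samples and 79.1, 73.2, 69.1 and 76.7 CPM in miR-21-/- TAMs. The means of 90.2 ± 4.69 and 74.5 ± 4.35 CPM differed by a log2 fold change of -0.27 ± 0.059 (interval -0.40 to -0.14, adjusted p = 0.00593). The decrease of 17.4% was below the study's limits, which are an adjusted p of at most 0.005 together with a fold change over 1.5. Under median of ratios it was -0.16 (adjusted p = 0.0857).

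The C/EBP pair separated. Cebpa was the only member past both limits, and it fell, whereas Cebpb did not pass the test. Cebpa (chr7:35119293-35121928, plus strand) had 59.1, 77.4, 82.5 and 65.8 CPM in WT samples and 50.5, 48.6, 41.4 and 42.6 CPM in miR-21-/- TAMs. WT 3 was the highest and miR-21-/- 3 the lowest, and the lowest WT sample lay above the highest miR-21-/- sample. The fall from 71.2 ± 10.7 to 45.8 ± 4.47 CPM, or 35.7%, gave a log2 fold change of -0.62 ± 0.11 (interval -0.86 to -0.38, adjusted p = 0.00196, limma). This call lies close to both limits. Without WT 2, WT 3, miR-21-/- 3 or miR-21-/- 4 the adjusted p was 0.00757, 0.00582, 0.00725 and 0.00629. The log2 fold changes were then -0.58, -0.55, -0.57 and -0.59. Under median-of-ratios scaling the change was -0.51 (adjusted p = 0.00464), less than 1.5-fold. The fold also fell under 1.5 with a pseudocount of 10 (-0.54), quantile normalization (-0.55) and rescaling to equal Spi1 (-0.58). With no filter and with a replicate block the adjusted p was 0.00861 and 0.00542.

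Cebpb (chr2:167688915-167690418, plus strand) had 219, 174, 222 and 218 CPM in WT samples and 226, 217, 224 and 218 CPM in miR-21-/- TAMs. WT 2 was the one low sample, and the other 7 lay between 217 and 226 CPM. The log2 fold change was 0.093 ± 0.077 (interval -0.079 to 0.27, adjusted p = 0.372), without WT 2 it was 0.010 (adjusted p = 0.900), and under median of ratios it was 0.20 (adjusted p = 0.0902). Tmem189 runs on the opposite strand over part of Cebpb (on average 144 CPM in WT TAMs and 148 CPM without miR-21), and whether the counting used strand is not given in the sources used here, so reads in the shared stretch cannot be told apart.

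Maf was the most abundant member in CPM, and was modestly lower in miR-21-/- TAMs. Maf (chr8:115682942-115707794, minus strand) had 953, 813, 869 and 796 CPM in WT samples and 747, 726, 760 and 652 CPM in miR-21-/- TAMs. The groups did not overlap, and WT 1 was the highest and miR-21-/- 4 the lowest. The difference of 15.9%, from 858 ± 70.6 to 721 ± 48.3 CPM, gave a log2 fold change of -0.25 ± 0.079 (interval -0.42 to -0.073, adjusted p = 0.0324). The change was -0.14 (adjusted p = 0.241) under median of ratios and -0.33 (adjusted p = 0.00862) under quantile normalization. It also missed 0.05 with no filter on low values (adjusted p = 0.0890) and without WT 1 (0.0746), WT 3 (0.0709), miR-21-/- 2 (0.0643) or miR-21-/- 4 (0.0883), and with rescaling to equal Spi1 (-0.21, adjusted p = 0.127). An antisense gene, Gm15655, overlaps Maf and was listed at 54.2 and 46.8 CPM on average.

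Both Krüppel-like factors were lower, Klf4 by more than any other member. Klf4 (chr4:55527143-55532466, minus strand) had 37.3, 28.7, 66.0 and 46.2 CPM in WT samples and 26.6, 18.7, 18.1 and 14.3 CPM in miR-21-/- TAMs. The WT samples were scattered (coefficient of variation 35.9%), and WT 2 lay just above miR-21-/- 1. Klf4 was 56.4% lower, at 19.4 ± 5.17 against 44.6 ± 15.98 CPM, with a log2 fold change of -1.13 ± 0.24 (interval -1.66 to -0.59). Its adjusted p of 0.00536 missed the limit of 0.005 narrowly, and was 0.00330 without WT 2 (log2 fold change -1.31) and 0.00443 without miR-21-/- 1 (-1.28). Leaving out any other sample gave 0.00969 to 0.0162, with the smallest change (-0.92) without WT 3, and fitting with no filter gave 0.0228.

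Klf2 (chr8:72319033-72321656, plus strand) had 91.4, 83.6, 99.8 and 112 CPM in WT samples and 83.9, 70.6, 76.6 and 78.9 CPM in miR-21-/- TAMs. The genotypes overlapped through WT 2, the lowest WT sample, and miR-21-/- 1, the highest of its group. With means of 96.8 ± 12.3 and 77.5 ± 5.52 CPM, the log2 fold change was -0.31 ± 0.090 (interval -0.51 to -0.11, adjusted p = 0.0218), a difference of 19.9%. Under median of ratios it was -0.20 (adjusted p = 0.139), and the adjusted p was also over 0.05 under quantile normalization (0.0636), with no filter (0.0584) and without WT 3 (0.0562), miR-21-/- 2 (0.0623) or miR-21-/- 3 (0.0502).

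Nr4a1, which responds within minutes to stimulation and is an immediate early gene as well as a lineage factor, was lower in miR-21-/- TAMs. It (chr15:101266846-101274792, plus strand) had 95.8, 94.3, 125 and 134 CPM in WT samples and 84.8, 47.2, 57.2 and 79.2 CPM in miR-21-/- TAMs. Every WT sample lay above every miR-21-/- sample, by a narrow margin between WT 2 and miR-21-/- 1. The means of 112 ± 20.2 and 67.1 ± 17.8 CPM gave a log2 fold change of -0.75 ± 0.19 (interval -1.17 to -0.34), and the adjusted p of 0.0108 was over the limit. Its paralogs Nr4a2 (5.71 ± 1.501 and 7.96 ± 2.60 CPM) and Nr4a3 (8.74 ± 2.89 and 12.7 ± 5.40 CPM), which were far less abundant, overlapped between genotypes.

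Immediate early genes can rise during tissue digestion and sorting, so 16 of them were summed per sample. The sum was 4686, 3232, 5423 and 5300 CPM in WT samples and 4314, 3496, 3889 and 3502 CPM in miR-21-/- TAMs. None of the 16 passed both limits, the median log2 fold change was -0.22, and 5 were lower at an adjusted p of at most 0.05 (Fos -0.52, Fosb -0.96, Jun -0.49, Jund -0.46 and Hspa1a -0.58) while 1 was higher (Socs3, 0.44), beside the 27.1% of all tested genes that were lower and 9.74% that were higher at this limit. Egr1, one of the 16, had 200 ± 49.4 and 151 ± 23.4 CPM. The part of these genes' response in the levels of Nr4a1 and Klf4 was not tested.

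Tfec (chr6:16833373-16898441, minus strand) had 35.3, 34.6, 33.9 and 19.99 CPM in WT samples and 33.7, 43.4, 34.7 and 35.6 CPM in miR-21-/- TAMs. WT 4 was low and miR-21-/- 2 high, and the other 6 samples lay between 33.7 and 35.6 CPM. The log2 fold change of 0.27 ± 0.17 (interval -0.097 to 0.64, adjusted p = 0.222) did not pass, and without WT 4 it was 0.083 (adjusted p = 0.483).

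**Figure D2:**
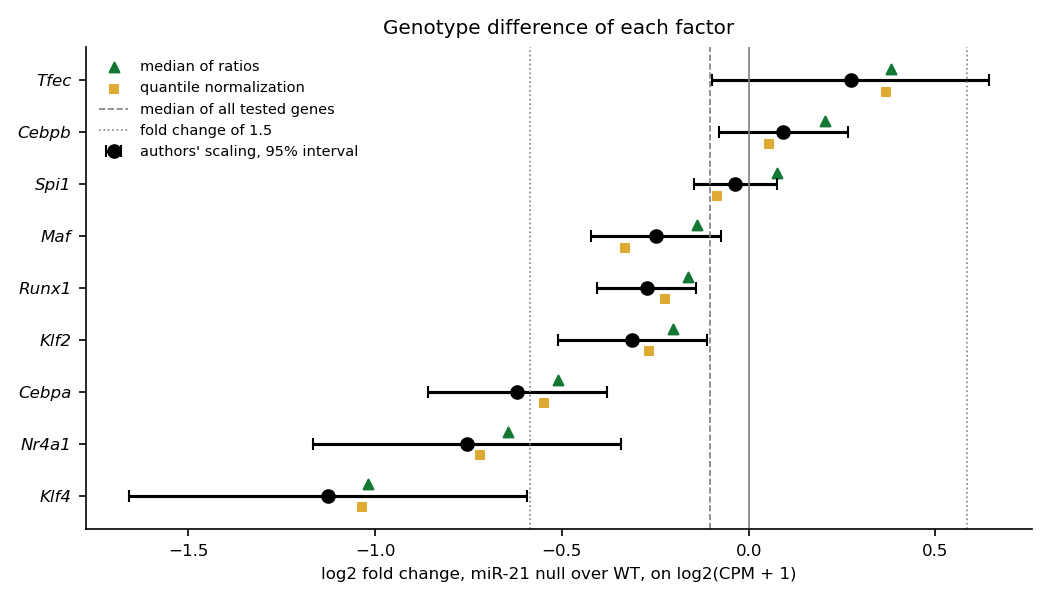
Log2 fold change of each factor, miR-21-/- over WT, on the log2(CPM + 1) scale (horizontal axis); black points with bars are the values as deposited with their 95% confidence interval, triangles and squares are the values after median-of-ratios and quantile scaling, the dashed line is the median of all tested genes (-0.10) and dotted lines mark a fold change of 1.5. Klf4 (-1.13), Nr4a1 (-0.75) and Cebpa (-0.62) lie past the dotted line as deposited, and Spi1 changes side between scalings.

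Across the set, 1 of 9 members (11.1%) passed both limits, Cebpa, against 7.24% of all tested genes (4.27% lower and 2.97% higher), a share near the background. At an adjusted p of at most 0.05 with no fold limit, 6 of 9 were lower (Cebpa, Maf, Klf2, Klf4, Nr4a1 and Runx1; 66.7%) and 0 were higher, where 27.1% of all tested genes were lower and 9.74% higher (36.8% together). Groups did not overlap, with miR-21-/- lower, in 5 of 9 members (55.6%) and in 26.1% of all tested genes. No member was higher without overlap, against 9.61% of all tested genes (35.7% in either direction). The median log2 fold change was -0.27 over the members and -0.10 over all tested genes, of which 66.8% lay below 0. Median-of-ratios scaling moved the median of all genes by 0.10, to -0.0024. Then 3 members stayed under an adjusted p of 0.05, Cebpa (-0.51), Klf4 (-1.02, adjusted p = 0.0109) and Nr4a1 (-0.65, adjusted p = 0.0281), beside 15.0% of all genes, and Spi1 turned to 0.074 (adjusted p = 0.321). Quantile normalization left 5 (Cebpa, Klf4, Nr4a1, Maf and Runx1), beside 16.6% of all genes.

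Ratios within a library do not depend on its scale factor. Relative to Spi1 of the same sample, 5 of the other 8 members were lower in all miR-21-/- samples than in any WT sample, a pattern shown by 18.8% of all tested genes, and 0 were higher in this way, against 9.91%. Runx1 was the tightest of them, at 0.358 ± 0.00999 of the Spi1 value in WT and 0.303 ± 0.00906 in miR-21-/- TAMs (SD, n = 4). Cebpa went from 0.283 ± 0.0450 to 0.186 ± 0.0178, Klf2 from 0.384 ± 0.0389 to 0.315 ± 0.0150, Klf4 from 0.177 ± 0.0640 to 0.0790 ± 0.0199 and Nr4a1 from 0.444 ± 0.0699 to 0.272 ± 0.0632. Klf2, which overlapped in CPM, did not overlap on this scale, while Maf, which did not overlap in CPM, did. Maf, Cebpb and Tfec had overlapping ratios.

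Pairs of related factors, chosen after their values were seen and therefore given with no test, were also compared within each library. Cebpa amounted to 0.269, 0.443, 0.372 and 0.301 of Cebpb in WT and to 0.223, 0.223, 0.185 and 0.195 in miR-21-/- TAMs. Klf4 over Klf2 was 0.456 ± 0.140 in WT and 0.250 ± 0.0568 in miR-21-/- TAMs. Both ratios had no overlap between genotypes, which restates the unlike fold changes within each pair. Tfec over Mitf was 1.15 ± 0.192 and 0.933 ± 0.0772, with overlap.

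**Figure D3:**
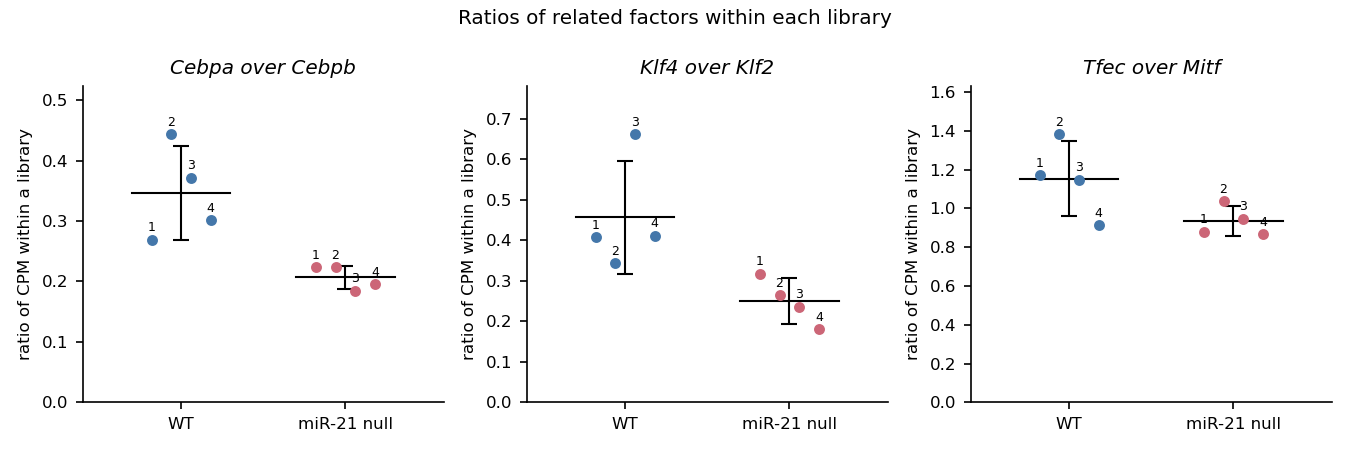
Ratio of CPM within each TAM sample (vertical axes, linear from 0) for Cebpa over Cebpb, Klf4 over Klf2 and Tfec over Mitf, by genotype; points are samples with their replicate number, lines are means and bars 1 SD, n = 4. The miR-21-/- samples lie under all WT samples in the panels of Cebpa over Cebpb and Klf4 over Klf2, and overlap them for Tfec over Mitf.

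Relatives and partners of the members were read from lists of 76 genes, of which 68 were tested. Past both limits, 1 was higher and 6 were lower (10.3% together), beside 7.24% of all tested genes (2.97% higher and 4.27% lower), and the median log2 fold change was -0.11, against -0.10 over all tested genes. Under median of ratios the split of all tested genes turned to 513 higher and 339 lower. Other myeloid fate factors then had 2 higher and 3 lower. Among 9 other KLF factors Klf11 fell from 10.8 ± 1.63 to 6.60 ± 0.405 CPM (log2 fold change -0.62, adjusted p = 0.00166), though not past both limits under median of ratios. Among 12 nuclear receptors the circadian repressors Nr1d1 (-1.02, adjusted p = 0.000408) and Nr1d2 (-0.90, adjusted p = 6.31e-05) fell. No gene passed both limits among 9 other ETS factors (from Etv6 at 0.16 to Spic at -0.59), 6 C/EBP factors and partners (from Trib1 at 0.33 to Cebpg at -0.31) and 6 MAF factors and partners (from Maff at 0.34 to Bach2 at -0.54).

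Of 6 RUNX and MiT factors none passed both limits, with Mitf highest (0.56, adjusted p = 0.00211) and Runx2 lowest (-0.52, adjusted p = 0.00285), both under 1.5-fold; under median of ratios 1 gene of this list passed. Of 20 other myeloid fate factors, Id2, an inhibitor of E proteins, rose from 71.7 ± 14.3 to 120 ± 12.7 CPM (log2 fold change 0.74, adjusted p = 0.00187). Lyl1, a basic helix-loop-helix factor of progenitors, fell from 38.9 ± 4.47 to 14.4 ± 3.26 CPM (-1.39, adjusted p = 8.18e-05), and Mef2c, a MADS-box factor, from 54.1 ± 8.85 to 22.2 ± 2.01 CPM (-1.24, adjusted p = 6.37e-05). Bhlhe41 fell by 1.20 on the log2 scale (adjusted p = 0.000276), from 4.11 ± 0.828 to 1.22 ± 0.307 CPM.

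Genes known to depend on the members moved in both directions; their counts are to be read beside the same 7.24%. Of 13 PU.1 and RUNX1 targets, Fcgr1 (0.75) and Tlr4 (0.66) rose and none fell past both limits, with a median of 0.067; Csf1r, named after its values were seen, had 1311 ± 160 and 939 ± 79.1 CPM (-0.48, adjusted p = 0.00525). Of 9 C/EBP targets, the inducible nitric oxide synthase Nos2 (2.10) and the cyclooxygenase Ptgs2 (0.61) rose and the lipocalin Lcn2 (-1.04) fell, with a median of 0.16; under median of ratios 2 were higher and 0 lower past both limits. Nos2 went from 33.3 ± 7.75 to 144 ± 20.7 CPM.

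Of 14 resident-like genes associated with Maf, the growth factor Igf1 (-2.58) and the bridging ligand Gas6 (-1.93) fell and none rose, with a median of -0.26, while Cd163 (-1.97, adjusted p = 0.0223), Lyve1 (-1.19, 0.0165) and Cbr2 (-1.09, 0.0421) were lower at 0.05 only. The log2 fold change was 0.0012 for C1qa, 0.013 for C1qb and -0.016 for C1qc; these genes and the 3 before them were chosen with their values known. Of 12 genes of Nr4a1-dependent monocytes, Cx3cr1 (-3.64), Ace (-2.33), Adgre4 (-2.23) and Eno3 (-0.68) fell and the scavenger receptor Cd36 (2.52) rose, with a median of -0.56; under median of ratios 1 was higher and 3 lower past both limits. Cx3cr1, the fractalkine receptor, went from 47.8 ± 21.4 to 2.69 ± 0.666 CPM. Of 7 targets of Klf2 and Klf4, the integrin chain Itgb7 (1.75) and the cell cycle inhibitor Cdkn1a (0.74) rose, with a median of 0.13, and of 13 lysosomal MiT targets the phosphatase Acp5 (-0.89) fell, with a median of 0.12. Under median of ratios 1 of these lysosomal targets was higher and 1 lower past both limits. In bulk samples such as these, fewer cells of a type and less RNA per cell cannot be told apart.

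**Figure D4:**
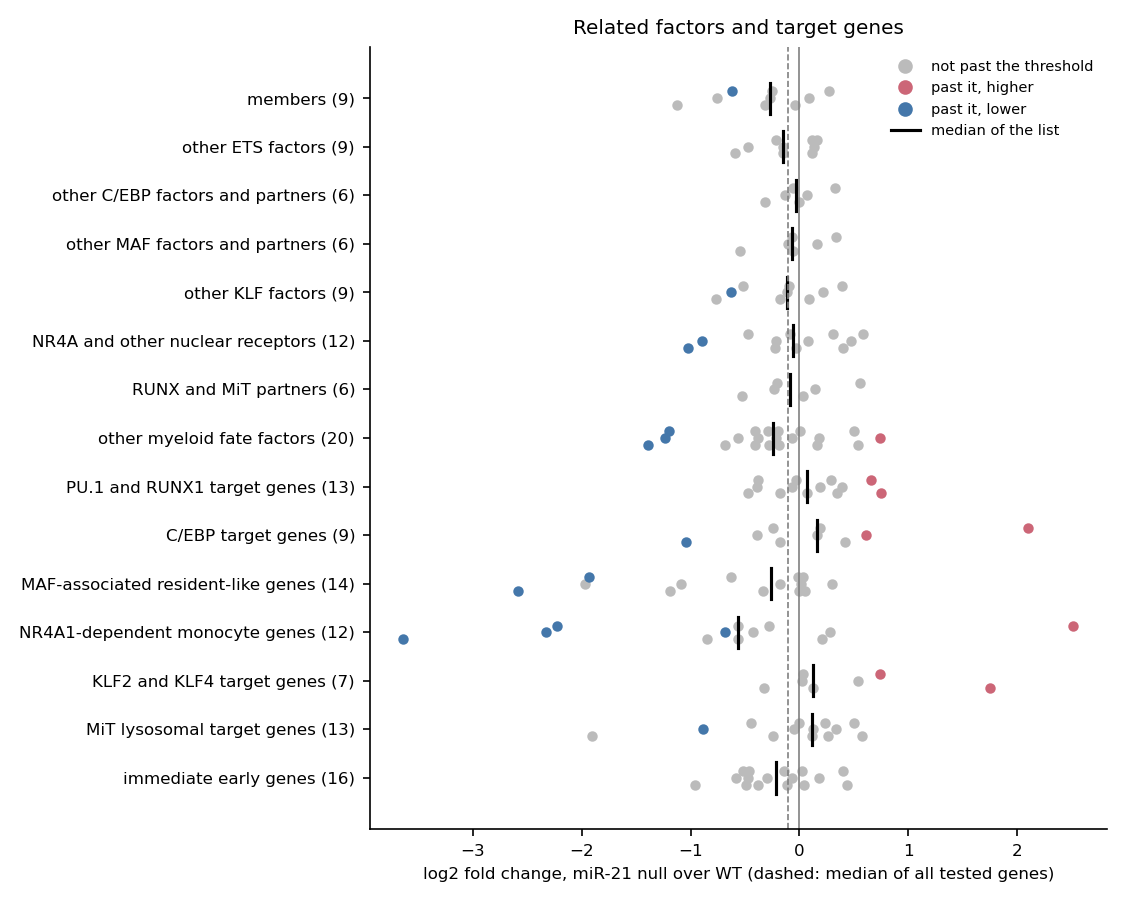
Log2 fold change, miR-21-/- over WT, on the log2(CPM + 1) scale (horizontal axis) of every tested gene in each list (rows; number of tested genes in brackets); colored points passed both limits, black ticks are list medians and the dashed line is the median of all tested genes. The members have 1 colored point, Cebpa, and the points farthest from 0 are those of Cx3cr1 (-3.64) on the left and Cd36 (2.52) on the right.

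Markers of other cells moved with genotype in part. Summed fibroblast markers (7 genes, 4 of them past both limits) were 67.0 to 143 CPM in WT samples and 11.6 to 45.9 CPM in miR-21-/- TAMs, B cell markers (5 genes) 11.4 to 17.6 and 3.84 to 11.3 CPM, epithelial tumor cell markers (4 genes) 18.8 to 24.8 and 12.7 to 17.9 CPM, and mast cell and basophil markers (4 genes) 1.45 to 2.03 and 0.384 to 1.14 CPM, all with no overlap. Neutrophil markers (10 genes) summed to 1121 to 2263 and 800 to 1155 CPM, with overlap, but of the 9 tested Mmp8 fell past both limits (-0.81). S100a8 (-0.52), S100a9 (-0.62), Cxcr2 (-0.36), Csf3r (-0.39) and Retnlg (-0.81) were lower at an adjusted p of at most 0.05. Ly6g of this list went the other way without passing (0.31, adjusted p = 0.269). Monocyte markers (6 genes) summed to 692 to 1160 and 600 to 1079 CPM and overlapped, with Plac8 lower (-0.96, adjusted p = 0.00869). Sums of conventional dendritic cell, T cell, NK cell and endothelial markers overlapped too, the last being mostly Pecam1, while the 5 other endothelial markers had lower means in miR-21-/- TAMs. Within the dendritic cell list Dpp4 fell past both limits (-1.04) and Cd209a was lower (-1.28, adjusted p = 0.0189). Clec9a of that list was higher (2.54 ± 0.195 and 8.18 ± 4.29 CPM, 1.26, adjusted p = 0.00532). Cd8a of the T cell list was higher too (1.92 ± 0.413 and 6.71 ± 3.66 CPM, 1.28, adjusted p = 0.00806). The other tested dendritic cell markers did not pass 0.05, from Xcr1 (1.06) to Flt3 (-0.50). Nor did the other T cell markers, from Cd3g (0.29) to Cd2 (-0.32). No marker of these lists was at 0 in all 8 samples. After the sort on CD45, CD11b, MHCII and F4/80, all 7 fibroblast markers and 9 of the 10 neutrophil markers exceeded 3 reads in all 8 samples. Cebpa and Klf4 are also expressed by neutrophils and fibroblasts, respectively, and the part of these cells in the members' levels was not tested.

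The genes whose profile over the 8 samples was most like that of Cebpa, by the root mean square distance between log2 profiles centred on the WT mean, were Tnk2 (0.0520), Fam98c (0.0594) and Rpl10a (0.0702). Tnk2, a tyrosine kinase, went from 8.83 ± 1.499 to 5.30 ± 0.822 CPM. Rpl10a, a protein of the large ribosomal subunit, went from 57.4 ± 6.95 to 37.5 ± 2.45 CPM. The nearest other member was Runx1, at a distance of 0.301, with 2722 genes nearer to Cebpa.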

How the data were processed

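RNA-Seq was done on mRNA of FACS-sorted TAMs in 4 WT and 4 miR-21-/- samples. The authors deposited 1 table of CPM values with 53247 rows, each value raised by 0.0001. The submitters' processing notes name STAR, Partek 7.0 and the build mm10; the counting rule and its strand setting are not given in the sources used here. The table gives GRCm38 positions, with an end 1 past the last base, which was taken off: 97.1% of the symbols found in GENCODE M21 had the same start there, and 8 of the 9 members had the same start and end (Nr4a1 has another start).

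Depth was estimated by taking the most frequent low value of each library as 1 read, which was worth 0.0300 to 0.0495 CPM. The listed values of a library summed to 788099 to 807758 CPM, less than 1e+06. Up to 20 reads, 73.8% to 74.6% of values were whole (tolerance 0.02), so whole reads were not recovered and no count test was run. The number of samples, 4 per genotype, limits the precision.

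From the deposited CPM, log2(CPM + 1) was fitted for 13363 genes whose mean reached 1 CPM, of 30454 above 0.0001 in any sample, with limma 3.58.1 (lmFit, eBayes with trend; R 4.3.3), two-sided, Benjamini-Hochberg adjusted. Past the threshold (both limits) means an adjusted p of at most 0.005 with a fold change over 1.5, as the study set for RNA-Seq. The fit was tested on simulated data. Figures were drawn with matplotlib 3.10.9. All members are described with all values. Of each list of relatives, targets or immediate early genes, those past both limits are named or, where there were none, the highest and lowest. Of the marker lists, sums and some single genes are given. Alternatives were other pseudocounts, filters, scalings, limma settings, limits, a replicate block and leaving out each sample, and, chosen after the values were seen, rescaling to equal Spi1. A few listed genes are not reported here. Members and lists were chosen with earlier results of these data known. Labels call the samples biological replicates but tie none to a mouse. The p-values set the genotype difference against the spread between these samples, which may not be the spread between mice.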

Additional observations from a re-analysis of the deposited data

Results flagged for a closer look

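Of 74 genes checked in both genotypes (148 groups of 4: the members, the listed genes past both limits and other genes with values in the text), 7 groups held 1 sample far from the other 3 by Dixon's test at the 95% level (critical value 0.829), where chance gives about 1 in 20 groups. Cebpb had 174 CPM in WT 2, with the other WT samples between 218 and 222 CPM. Tfec had 19.99 CPM in WT 4, with the others between 33.9 and 35.3 CPM. Lyl1 had 19.3 CPM in miR-21-/- 1, with the others between 12.6 and 12.9 CPM, and this sample still lay under the lowest WT sample (34.3 CPM). Nr4a3 had 20.7 CPM in miR-21-/- 1, with the others between 9.37 and 11.1 CPM. C1qb had 1159 CPM in WT 1, with the others between 1392 and 1410 CPM, and Cd209a had 1.16 CPM in miR-21-/- 1, with the others between 0.0769 and 0.232 CPM. Plac8 had 57.0 CPM in miR-21-/- 1, with the others between 30.1 and 34.0 CPM.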

How the results depend on the processing

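The count of 967 genes past both limits became 453 with a pseudocount of 10 CPM and 581 with no filter on low values. It was 4917 at an adjusted p of at most 0.05 with no fold limit and 671 to 975 when 1 sample was left out. Of the calls, 41.1% were higher in miR-21-/- TAMs as deposited, 60.2% under median of ratios and 60.0% under quantile normalization. The member count of 1 became 0 with a pseudocount of 10, with no filter, under median of ratios, under quantile normalization and with rescaling to equal Spi1, and 2 with array weights (Klf4 added, adjusted p = 0.00388). It was 3 at an adjusted p of at most 0.05 with the fold limit and 6 without it, and 0 to 2 when 1 sample was left out (0 without WT 3, miR-21-/- 3 or miR-21-/- 4). Cebpa kept its call in 4 of 10 alternatives and 4 of 8 fits without 1 sample (log2 fold change -0.70 to -0.55), and its direction in all of them. Spi1 reversed to 0.074 under median of ratios, with neither value past a limit. The 8 other members kept their direction in every alternative listed here. The replicate numbers used here run from 1 to 4 in each genotype, while the titles and library names of miR-21-/- samples 2, 3 and 4 carry 3, 4 and a letter. With the replicate number as a block the member count was 0 (Cebpa adjusted p = 0.00542) and the gene count 907. Deviations of samples with the same replicate number correlated at 0.0855, -0.112, -0.148 and 0.228, with 1 of 4 pairs over 0.1, so these numbers show no pairing. By the numbers in the titles, WT 3 and miR-21-/- 2 correlated at 0.136 and WT 4 and miR-21-/- 3 at 0.0340. A block by title was not fitted. Under median of ratios list counts changed for other KLF factors (1 to 0), RUNX and MiT factors (0 to 1), lysosomal MiT targets (1 to 2), other myeloid fate factors (4 to 5), C/EBP targets (3 to 2) and Nr4a1-dependent genes (5 to 4). The cause of these shifts was not tested. Depth limits no member, since each had an estimated 432 reads or more in every sample.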
